A study of Homo sapiens with 6 samples.

Results

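The miRNAs described here are 6 small RNAs that are often reported as raised in colorectal tumours: hsa-miR-31-5p, the members of the miR-183 cluster (hsa-miR-183-5p, hsa-miR-96-5p and hsa-miR-182-5p), hsa-miR-135b-5p and hsa-miR-224-5p; the species prefix hsa is left out below. They were chosen by name, with earlier results of these data known, and were found as 6 of the 1891 human miRNA probes among 3533 probe identifiers on the array. The study put 1 array to each of 6 cultures. Of the colorectal cancer lines Lovo, SW620 and HT29, each was stably transfected with a pSUPER gfp-neo vector that carried a short hairpin RNA (shRNA), either 1 against the transcript of the growth factor TGF-β1, TGFB1 (knockdown), or a control hairpin (control). All 6 cultures thus carry the vector backbone, and the design names 1 stably transfected culture per line and shRNA. Groups follow the sample titles and source names; both label fields on vector and genotype give the Lovo control culture the TGFB1 vector and the HT29 knockdown culture the control vector. Under those fields neither Lovo nor HT29 would hold a knockdown contrast, so in these lines the contrast itself rests on the titles and source names. The array holds no probe for TGFB1 messenger RNA, so the knockdown itself was not analysed here.

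A miRNA is cut from a hairpin, and a strand of it (the 5p or the 3p arm) guides Argonaute to messenger RNAs, mainly through its seed, bases 2 to 8 from the 5′ end. In colorectal tumours miR-31 is known for high levels in cancers with BRAF mutations and for targeting RASA1, a brake on RAS. The miR-183 cluster is made as 1 transcript, is best known from sensory organs, and includes FOXO1 among the targets of its members. APC, the gatekeeper of the Wnt pathway in the gut, is a target of miR-135b, and SMAD4, a transducer of TGF-β signals, has been described as a target of miR-224.

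The mature sequences are shown because the question of which relatives a probe might also bind, and which of the 6 miRNAs share targets, turns on them. RefSeq (GRCh38.p14) held all 6, here 5′ to 3′ with the seed in capitals:
miR-31-5p: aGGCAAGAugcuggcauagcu
miR-96-5p: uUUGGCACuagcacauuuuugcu
miR-182-5p: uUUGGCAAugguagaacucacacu
miR-183-5p: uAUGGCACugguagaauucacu
miR-135b-5p: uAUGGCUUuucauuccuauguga
miR-224-5p: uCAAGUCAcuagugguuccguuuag

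The 6 miRNAs have 6 distinct seeds. Counted from the 5′ end, the seed of miR-96-5p differs from that of miR-182-5p by C8A and from that of miR-183-5p by U2A, so the cluster members are near relatives. Outside the 6, the seed of miR-96-5p is shared by miR-1271-5p (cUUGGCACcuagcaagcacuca), and miR-135b-5p shares its seed with miR-135a-5p (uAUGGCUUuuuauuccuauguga), from which it differs over its whole length by C11U alone. In GRCh38.p14 the mature arms of the cluster lie within 4583 bases at chr7:129770406-129774988 on the minus strand. The others also lie on the minus strand, miR-31-5p at chr9:21512158-21512178 inside the gene of the long noncoding RNA MIR31HG, miR-135b-5p at chr1:205448361-205448383 inside the annotated bounds of LEMD1 and BLACAT1, and miR-224-5p at chrX:151958628-151958652 inside GABRE, which encodes a GABA receptor subunit.

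Signal here is the median over the 4 spots of a probe of foreground minus background intensity, and detection on an array means a signal of 50 or more. Between 398 and 542 of the human probes (21% to 28.7%) were detected per array. With 6 arrays in all, precision is limited by their number. The 7 human negative control probes reached at most 57.5 on the Lovo knockdown array and at most -4 on the 5 others, where the median background was also higher (138 to 202, against 86). Of 9 gut and epithelial marker miRNAs, Lovo knockdown cells showed 8 and Lovo control cells 6; the counts were 1 and 2 in SW620 and 1 and 0 in HT29, so few markers of gut epithelium were detected outside Lovo. The Lovo knockdown array stood apart from the rest. Its mean correlation with the other arrays over human probes was 0.841, against 0.888 to 0.919, and the summed signal of the gut and epithelial markers was 8810.5 there, against 1370 in Lovo control and at most 386 in the other lines.

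Of the 6 miRNAs, 1 was detected on all arrays (miR-31-5p), 1 on 5 arrays (miR-183-5p), 1 on a single array (miR-135b-5p) and 3 on none (miR-96-5p, miR-182-5p and miR-224-5p). Across the human probes, 36.2% were detected on at least 1 array and 13.5% on all 6. The 2 detected on at least 2 arrays, as were 30.1% of human probes, were miR-31-5p and miR-183-5p. They entered the tests and are not the whole set.

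**Figure D1:**
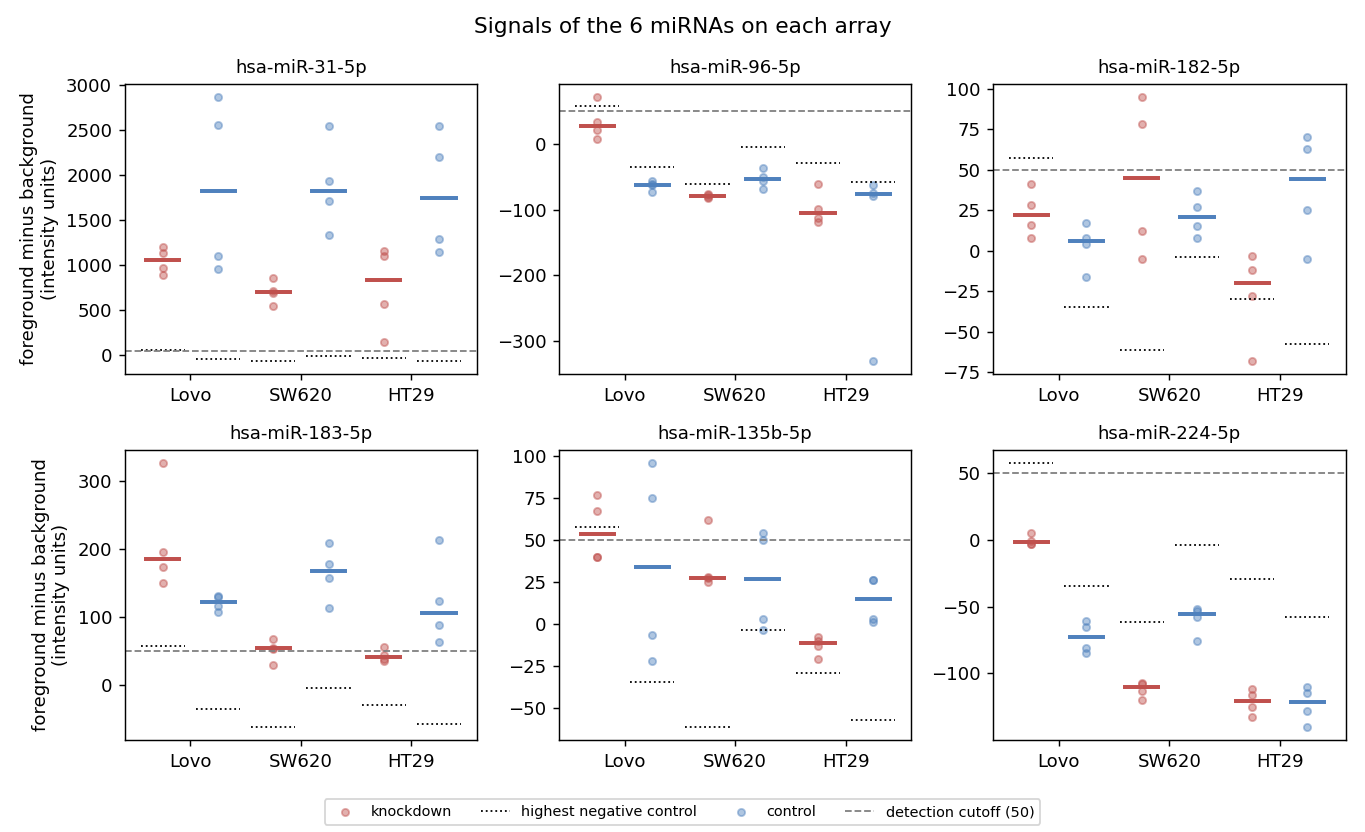
Foreground minus background intensity (y axis, intensity units, a separate linear scale in each panel) of each of the 6 miRNAs on the 6 arrays (x axis, cell line). Points are the 4 spots, thick bars their median, the dashed line the detection cutoff of 50 and dotted bars the highest negative control probe of that array; miR-31-5p lies far above both on all 6 arrays, while miR-96-5p and miR-224-5p lie below the highest negative control on all 6.

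The miRNA detected throughout was miR-31-5p. Its signal was 1053.5 in knockdown and 1828.5 in control Lovo cells, 699 and 1825 in SW620, and 835 and 1748.5 in HT29. The 3 control arrays were thus close to one another (1748.5 to 1828.5), all 3 knockdown arrays were lower (699 to 1053.5), and the groups did not overlap. Control exceeded knockdown 1.74-fold in Lovo, 2.61-fold in SW620 and 2.09-fold in HT29. The same absence of overlap, with knockdown lower, was seen for 13.2% of the 570 human miRNAs tested. On each array the probe ranked between the 96th and 98.9th percentile of the human probes.

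After quantile normalisation between arrays the separation narrowed. Normalised log2 intensities of miR-31-5p were 10.44 in knockdown and 10.74 in control Lovo cells, 9.73 and 11.00 in SW620, and 9.76 and 10.35 in HT29. The Lovo knockdown value now lay above that of the HT29 control, so the groups overlapped, while knockdown stayed below control within each line. That pattern of 3 lower lines was shared by 16.7% of the miRNAs tested, and 9.47% still had all knockdown values below all control values. Knockdown minus control was -0.30 ± 0.38 in Lovo (log2, SE over spots, which is technical error only), -1.27 ± 0.21 in SW620 and -0.59 ± 0.52 in HT29. Of these, the SW620 difference was the one several times its spot error. At 2-fold or more it was among the 7.88% of miRNAs detected on both SW620 arrays that were lower in knockdown by that much. Neither the Lovo nor the HT29 difference reached 2-fold, a size that 7.11% and 7.23% of miRNAs had there in the same direction. With 1 array per condition no test is possible within a line.

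Across the lines the mean difference of miR-31-5p was -0.72 ± 0.41 (limma SE, n = 3 pairs; 95% interval -1.62 to 0.19). It did not pass the limma test with cell line as a block (adjusted p = 0.553 over 570 miRNAs). The same fit called 0 of the 570 (0%), with 10.7% at an unadjusted p under 0.05, and the counts in other settings ranged from 0 to 22 (the latter without the HT29 pair). Without the Lovo pair the mean was -0.93 ± 0.37, and without the SW620 and HT29 pairs it was -0.44 ± 0.64 and -0.79 ± 0.55 (limma adjusted p 0.522 to 0.912). The interval holds both a loss of more than 2-fold and no change. The median of all 570 mean differences was 0.05, and 45.3% were below 0.

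The direction in HT29 depends on how the arrays are scaled. With the arrays aligned on the 16 spike control probes detected on all of them, the miR-31-5p difference was 1.05 in HT29, against -0.20 in Lovo and -1.90 in SW620. In that scaling the median of all tested miRNAs moved to 2.01 in HT29, so miR-31-5p was still lower than the typical miRNA there. Without normalisation between arrays the differences were -0.69, -1.14 and -1.26 in Lovo, SW620 and HT29. Relative to the median of all tested miRNAs in the same setting (-0.22, 0.13 and -0.31), miR-31-5p remained lower in each line.

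**Figure D2:**
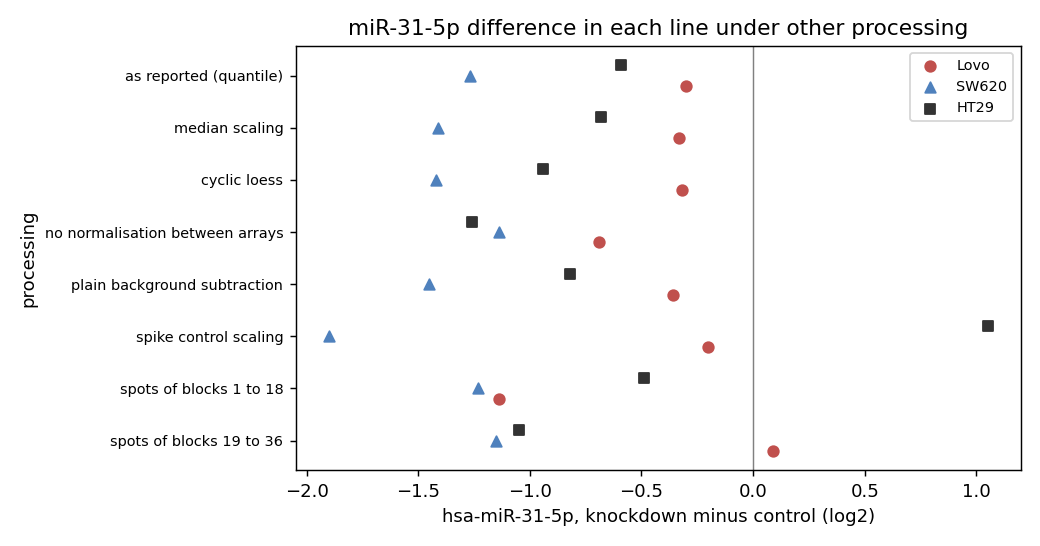
Knockdown minus control of miR-31-5p (x axis, log2) in each cell line under the reported processing and 7 others (y axis). Values lie below 0 in all 3 lines except for HT29 under spike control scaling (1.05) and Lovo with the spots of blocks 19 to 36 alone (0.09).

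Spots of the same probe disagreed by position on the array. Each probe has 2 spots in blocks 1 to 18 and 2 in blocks 19 to 36. On the Lovo control array the mean signals of miR-31-5p in these block groups were 2709.5 and 1029.5, while on the Lovo knockdown array they were 1168 and 930. The lower knockdown value in Lovo thus came mostly from the spots of blocks 1 to 18. In HT29 the values were 1129.5 and 361.5 in knockdown and 2374 and 1221.5 in control, so knockdown was lower in both block groups, as it was in SW620 (616 and 786 against 2243 and 1522). The log2 difference between the block groups was 1.27 for miR-31-5p on the Lovo control array, and 8.32% of the miRNAs detected there differed as much. The median of those detected there was -0.43. For miR-31-5p the difference was 1.37 on the HT29 knockdown array (13.4% differed as much) and 0.83 on HT29 control (7.06%). It was 0.3 on the Lovo knockdown array, -0.27 on SW620 knockdown and 0.52 on SW620 control. With the block groups used separately, a choice made after seeing the data, the normalised Lovo difference was -1.14 and 0.09, that of SW620 -1.23 and -1.15, and that of HT29 -0.49 and -1.05.

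**Figure D3:**
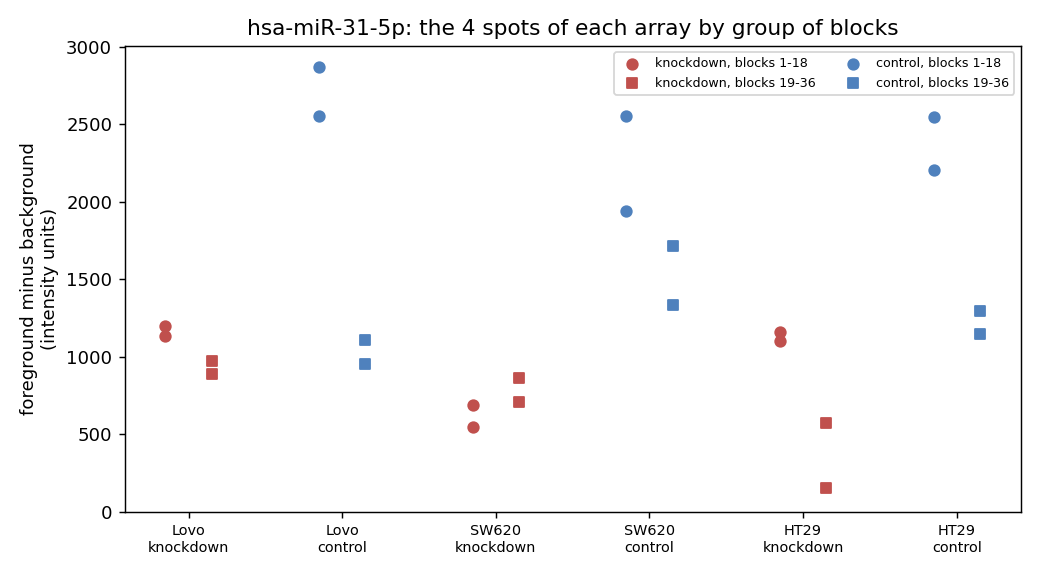
Foreground minus background intensity (y axis, intensity units) of the 4 miR-31-5p spots on each of the 6 arrays (x axis), circles for blocks 1 to 18 and squares for blocks 19 to 36. On the Lovo control array the circles lie near 2709.5 and the squares near 1029.5, the latter beside the knockdown spots.

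Summed signals of markers of other cell types were also lower in knockdown, though single markers differed. With signals below 0 counted as 0, the summed signals of 6 blood cell markers were 279 in knockdown and 694.5 in control Lovo cells, 1383 and 1739 in SW620, and 524 and 3261.5 in HT29. Those of 5 fibroblast and smooth muscle markers were 334.5 and 2550.5, 1534 and 4801, and 1776.5 and 4809.5. Both sums were lower in knockdown in every line, as the signal of miR-31-5p was. The sums use signals that were not normalised between arrays. Without that normalisation the median difference of all tested miRNAs was -0.22 in Lovo, 0.13 in SW620 and -0.31 in HT29 (log2). After normalisation, 16.7% of the 570 miRNAs tested were lower in knockdown in each of the 3 lines. In the fibroblast list, miR-199a-5p was the marker detected on all 6 arrays and made up most of the sum (904.5 and 4334.5 in SW620 knockdown and control). In SW620 3 of the 5 had the higher signal in knockdown, among them miR-214-3p (391 and 261.5), and all 5 were detected on at least 1 array. Of the 6 blood markers 4 were detected on at least 1 array. In HT29 most of the sum came from the arms of 1 hairpin, miR-142-3p (217 in knockdown and 2645 in control) and miR-142-5p (207 and 493.5). Their signals were 265 and 305.5 in Lovo control and below 0 in Lovo knockdown. In SW620 miR-142-3p stood at 1097.5 in knockdown and 1194.5 in control, and miR-142-5p at 36.5 and 320. The myeloid marker miR-223-3p was detected on none; of the red cell markers, miR-144-3p was detected on none and miR-451a on 1, SW620 knockdown (146, against -35 in control). The lymphocyte marker miR-150-5p was higher in Lovo knockdown than control (249 and 124). In SW620 its signal was lower in knockdown (78 and 224.5), and in HT29 the signals were 100 and 87.5. The sum of the gut and epithelial markers was higher in Lovo knockdown (8810.5 and 1370) and lower in SW620 knockdown (102.5 and 386), and in HT29 1 of these markers was detected, on the knockdown array alone. The part of these markers in the miR-31-5p difference was not tested. In a bulk culture, fewer cells that make a miRNA and less of it per cell cannot be told apart.

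The passenger arm miR-31-3p was detected on 1 array, that of HT29 control, with a signal of 57.5. Its signals elsewhere were 12.5 and -26 in Lovo knockdown and control, 14 and 4 in SW620, and -30 in HT29 knockdown. The HT29 control value was at least 1.33-fold above the knockdown array after normalisation; no test was run.

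Within the miR-183 cluster some arms were detected and others were not. For miR-183-5p the signals were 185 in knockdown and 122.5 in control Lovo cells, 54 and 168 in SW620, and 41 in HT29 knockdown, where the 4 spots ran from 35 to 56; in HT29 control they ran from 64 to 213. Knockdown was the higher array in Lovo and the lower in SW620 and HT29, and the groups overlapped. All 6 signals exceeded every negative control probe of the same array, and 5 passed the cutoff. Normalised differences were 0.31 ± 0.17 (log2, SE over spots) in Lovo and -0.37 ± 0.11 in SW620. Over 7 other settings they ran from 0.13 to 0.64 in Lovo and from -1.02 to -0.06 in SW620. In HT29 the knockdown array did not detect it. By the normalised values control was 1.27-fold higher there, a difference of -0.34 ± 0.12 that uses a knockdown value under the cutoff. The mean over lines was -0.13 ± 0.29 (limma SE, n = 3 pairs; 95% interval -0.78 to 0.51; adjusted p = 0.893). Without the Lovo pair it was -0.35 ± 0.35 (limma adjusted p = 0.818), and it was -0.02 and -0.03 without the SW620 and HT29 pairs. The sign of that mean turned with spike control scaling (0.41) and with the spots of blocks 1 to 18 alone (0.01).

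From the other end of the same hairpin, miR-183-3p (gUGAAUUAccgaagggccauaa) was detected on all 6 arrays. Its signals were 352.5 and 276.5 in Lovo knockdown and control, 473.5 and 174.5 in SW620, and 136 and 215.5 in HT29. The order of the SW620 arrays was thus opposite to that of the 5p arm. On the normalised scale miR-183-3p differed in SW620 by 0.87 ± 0.11 (log2, SE over spots), against -0.37 ± 0.11 for miR-183-5p, and whether the arms differ was not tested, since each has 1 pair of arrays in that line. Over the lines miR-183-3p had a mean difference of 0.34 ± 0.36 (limma adjusted p = 0.742), which became 0.07 without the SW620 pair and 0.53 when the HT29 pair was left out, and 0.95 with plain background subtraction and 0.91 with spike control scaling.

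The 2 other cluster members were not detected. Signals of miR-182-5p were 22 and 6 in Lovo knockdown and control, 45 and 21 in SW620, and -20 and 44 in HT29. All lay under the cutoff, yet 5 of the 6 exceeded every negative control probe of their array, as did 34.2% of human probes on at least 5 arrays. On the SW620 knockdown array its spots were 12 and -5 in blocks 1 to 18 but 78 and 95 in blocks 19 to 36. Signals of miR-96-5p were 27.5 and -62 in Lovo, -79.5 and -53 in SW620, and -106 and -77 in HT29. None of these exceeded the highest negative control of its array. The arms miR-96-3p and miR-182-3p had signals below 0 on all 6 arrays, as did miR-1271-5p, which has the seed of miR-96-5p. No difference between knockdown and control was read for these probes.

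The only detection of miR-135b-5p was a signal of 53.5 on the Lovo knockdown array, where a negative control probe reached 57.5. Its other signals were 34 in Lovo control, 27.5 and 26.5 in SW620 knockdown and control, and -11.5 and 14.5 in HT29. On those 5 arrays it exceeded every negative control. No difference between knockdown and control was read from these values. The other arm, miR-135b-3p, and the relative miR-135a-5p were below 0 on all 6 arrays.

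No array showed miR-224-5p, whose signals ran from -121.5 (HT29 control) to -2 (Lovo knockdown) and never exceeded the highest negative control. Its other arm miR-224-3p (aAAAUGGUgcccuagugacuaca), which has another seed, was detected on all 6 arrays. Signals of miR-224-3p were 545.5 in knockdown and 240 in control Lovo cells, 286.5 and 315.5 in SW620, and 205.5 and 160 in HT29. In Lovo the excess came from the spots of blocks 1 to 18 (713 against 188), with 364 against 295.5 in the other blocks. The normalised difference in Lovo was 0.86 ± 0.26 (log2, SE over spots), that in SW620 -0.12 ± 0.11 and that in HT29 0.40 ± 0.09. Their mean, 0.38 ± 0.37, did not pass limma's test (95% interval -0.44 to 1.20; adjusted p = 0.702). It became 0.14 without the Lovo pair, 0.63 without the SW620 pair, 0.65 with plain background subtraction and 0.94 with spike control scaling. The arms of miR-452, whose hairpin lies in GABRE beside that of miR-224, were below 0 on all 6 arrays.

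**Figure D4:**
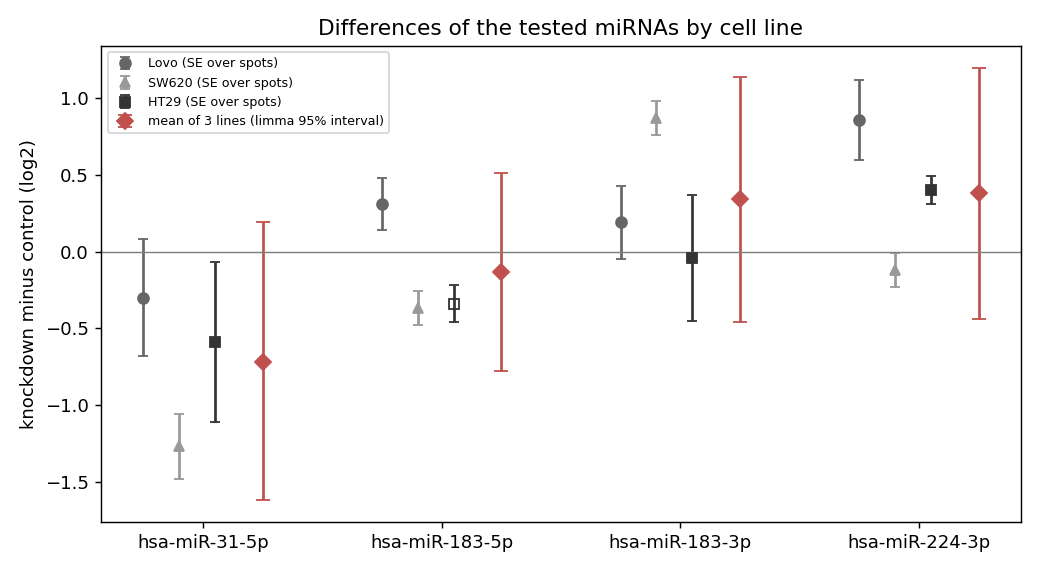
Knockdown minus control (y axis, log2) for the 4 tested miRNAs, 2 of the 6 and 2 other arms (x axis), as points per cell line with the SE over spots and as the mean of 3 lines with limma's 95% interval. Every interval of a mean crosses 0; the open square of miR-183-5p in HT29 uses a knockdown value that was not detected.

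Between the lines neither tested miRNA was called. Lovo had a mean normalised log2 intensity of miR-31-5p of 10.59, SW620 of 10.37 and HT29 of 10.06. Knockdown minus control within the lines was -0.30 in Lovo, -1.27 in SW620 and -0.59 in HT29. For miR-183-5p the means were 8.30, 8.18 and 8.07 in the same order, and the arrays of each line lay further apart than neighbouring lines did. Limma's F-test with shRNA as a block gave adjusted p = 0.978 for miR-31-5p and 0.983 for miR-183-5p. Over the whole set of 570 it made 0 calls (0%), and 5.96% had an unadjusted p under 0.05.

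The profiles most like that of miR-31-5p over the 6 arrays, by root mean square difference of log2 values centred on each probe's mean, were those of miR-3182 (0.13), miR-4695-3p (0.22) and miR-3607-5p (0.23), where miR-31-5p itself had an SD of 0.51. All 3 were detected on all 6 arrays. Signals of miR-3182 were 644 and 1110 in Lovo knockdown and control, 407 and 800 in SW620, and 380.5 and 963 in HT29. For miR-183-5p the nearest were miR-4769-3p (0.07), miR-4728-3p (0.09) and miR-490-5p (0.10), against its own SD of 0.21. These were each detected on 3 arrays, so these profiles include values below the cutoff.

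Of 15 other miRNAs described as raised in colorectal tumours, 12 were tested, and 0 passed limma's adjusted test. A limma unadjusted p under 0.05 was seen for 3 (miR-19b-3p, miR-20a-5p and miR-25-3p, all lower in knockdown), beside 10.7% of all 570. Of these, miR-25-3p was detected on 3 control arrays and 1 knockdown array, so it met the detection filter through the controls. Its signals were 11.5 in Lovo knockdown and 40.5 in SW620 knockdown, under the cutoff. In HT29, where miR-19b-3p had its largest difference (-2.40), its knockdown signal was -22, also under the cutoff. The median difference of the 12 was -0.64 and 10 of them were below 0, beside a median of 0.05 and 45.3% below 0 over all 570. Some of the 12 lie in the same cluster, so they are not independent of one another. On the normalised scale miR-17-5p, miR-19b-3p, miR-20a-5p and miR-25-3p were lower in knockdown in each line, as were 16.7% of all 570. For miR-17-5p the differences in Lovo (-0.26 ± 0.95, log2, SE over spots) and SW620 (-0.44 ± 0.74) were smaller than their spot error. Others had mixed signs, such as miR-93-5p, with 0.31 ± 1.01 in Lovo, 0.37 ± 0.33 in SW620 and -2.06 ± 0.27 in HT29. Each of these miR-93-5p differences uses a signal under the cutoff: 19.5 (Lovo control), 49 (SW620 control) and -46.5 (HT29 knockdown). No direction was therefore read for miR-93-5p. By the level of their probes, the 3 named from the 12 were miR-21-5p, miR-20a-5p and miR-106a-5p. The tumour suppressor PDCD4 is a target of miR-21-5p. Close in sequence, miR-20a-5p and miR-106a-5p have probes that may share signal. For miR-21-5p signals were 857 and 3170 in Lovo knockdown and control, 1074 and 2722.5 in SW620, and 3760.5 and 4622 in HT29. Its mean difference was -0.93 ± 0.42 (limma adjusted p = 0.449), with -1.92 in Lovo and 0.38 in HT29. The mean was -1.33 ± 0.38 for miR-20a-5p (adjusted p = 0.180) and -0.20 ± 0.43 for miR-106a-5p (adjusted p = 0.892). The last turned to 0.37 with spike control scaling and to 0.11 when the SW620 pair was left out. With the HT29 pair left out, miR-21-5p (-1.59, adjusted p = 0.0300) and miR-20a-5p (-1.47, adjusted p = 0.0241) passed limma's test. Without the Lovo pair the mean of miR-21-5p was -0.44 (adjusted p = 0.816), and without the SW620 pair that of miR-20a-5p was -0.85 (adjusted p = 0.433). With the spots of blocks 1 to 18 alone miR-20a-5p stood at -0.46 (adjusted p = 0.752).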

How the data were processed

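Total RNA from 6 cultures was labelled with 1 dye (Hy3) and read on arrays, 1 per culture, per the labels' protocols. For each of 15840 spots per array the authors deposited an intensity before and after background subtraction, per the file headers, with no scaling between arrays. A further deposited table gives a ratio per probe, its median background-subtracted intensity over 1 factor per array (282.75 to 353.75), whose origin is unknown; it served as an alternative.

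Intensities were corrected by normexp (offset 50), put on the log2 scale, averaged over spots and quantile-normalised over the human miRNA probes with limma 3.58.1 in R 4.3.3. Probes detected on at least 2 arrays (570) were tested by lmFit and eBayes with a trend, with cell line (knockdown) or shRNA (lines) as a block and Benjamini-Hochberg adjustment over all of them; a value under 0.05 was called. The cell line pairs the arrays, since both come from 1 line, and 2 residual degrees of freedom remain. Cultures were grown and harvested separately, per the design text. A bound on a fold sets the detecting array against the higher of the other array's lowest detected value and its own. Named miRNAs are the 6, their other arms, seed and host gene relatives, the 3 nearest profiles of each tested one and the 3 of highest level among other tumour-raised miRNAs. The 6 and all lists were chosen with earlier results of these data known. The fits were tested on simulated data. RefSeq held 9 of 10 other arms and relatives. Alternatives changed background, normalisation, filter, spots, value table, variance model, block or arrays.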

Additional observations from a re-analysis of the deposited data

How the results depend on the processing

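In 18 other settings miR-31-5p kept a mean difference below 0 (-1.14 to -0.35) and was never called by limma (adjusted p 0.285 to 0.936). Leaving out 1 pair gave -0.93 to -0.44. For miR-183-5p the mean lay between -0.86 and 0.41 in 17 settings, with a sign change under spike control scaling (0.41) and with blocks 1 to 18 alone (0.01), and no call (adjusted p 0.818 to 0.996). Neither was called between lines. The count of miRNAs called for knockdown was 0 as reported, 7 with median scaling, 9 with cyclic loess, 3 with the value table, 7 among miRNAs detected on all 6 arrays, 21 with robust eBayes, 3 without probes of zero variance and 0 to 22 leaving out 1 pair. It was 0 without cell line as a block, which changed no call. In limma miR-31-5p then stood at adjusted p = 0.489. Between lines the count was 0, but 6 with median scaling, 4 with cyclic loess, 1 with spike control scaling, 2 among miRNAs detected on all arrays, 5 with robust eBayes, 1 without zero variance and 0 to 14 leaving out 1 array. Detection depended on the cutoff: 4 of the 6 miRNAs were detected on at least 2 arrays at 25, and 2 at 100. With no filter on dim probes the 4 others gave limma adjusted p of 0.638 to 0.989.

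Signs also turned for miR-4769-3p with median scaling (0.04), spike control scaling (0.50), blocks 1 to 18 (0.03) and without the SW620 pair (0.06), and for miR-4728-3p in the same settings (0.05, 0.51, 0.01 and 0.07). Leaving out 1 pair gave -0.20 to 0.06 for miR-4769-3p, -0.17 to 0.07 for miR-4728-3p and -0.45 to 0.11 for miR-106a-5p. They turned for miR-490-5p with spike control scaling (0.45) and blocks 1 to 18 (0.02), and for miR-106a-5p with spike control scaling (0.37) and without the SW620 pair (0.11). The cause was not tested. Probes under the cutoff give no reading of direction, and 3 pairs leave wide intervals.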
